A study of Rattus norvegicus with 6 samples.

Results

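Apolipoproteins and Mttp, the proteins that build, coat and direct the lipoprotein particles made by hepatocytes, were examined in liver RNA of rats after faecal microbiota transplantation. Members were the rows of the gene table named Apoa1, Apoa2, Apoa4, Apoa5, Apob, Apoc2, Apoc3, Apoe, Apoh and Mttp, 10 of the 30957 genes in the table. All 10 were found and all 10 passed the filter on low counts, which left 12210 genes to be tested. None of the 10 met the criteria for a difference between the groups, which 4.95% of all genes tested met. In edgeR's quasi-likelihood test with all 6 livers, 9 of the 10 had a 95% interval within a fold change of 1.5 in either direction. Each member's interval also reached past a fold change of 1.2, the size used for calls, upward or downward. Changes of that size were thus not excluded for any member.

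The recipients were female Sprague Dawley rats, 3 weeks old on arrival, and each of them drank an antibiotic cocktail for 21 days in all, given in courses, which made it pseudo germ-free. By daily gavage for 14 days, 3 rats then received microbiota from donors injected with phosphate buffer saline (t-PBS), and 3 received it from donors injected with dehydroepiandrosterone, an androgen precursor used to model polycystic ovary syndrome (t-DHEA). No hormone injection of the recipients is described, donor pellets were pooled, and the antibiotics were common to both groups. The study measured more dehydroepiandrosterone sulfate in faeces of the donors given dehydroepiandrosterone, and states that it was transferred with the microbiota. It considered the amount very low and held that the effect of transplantation may be unrelated to it. Its part in the values here was not tested. Livers were read as bulk RNA, so fewer cells of a type and less RNA per cell cannot be told apart. The study states that rats were caged in pairs, and nothing in the labels says which rats shared a cage.

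Very-low-density lipoprotein is assembled in the endoplasmic reticulum of the hepatocyte, where the microsomal triglyceride transfer protein, encoded by Mttp, loads lipid onto apolipoprotein B as it is made. Apolipoproteins A1 and A2 form the frame of high-density lipoprotein, and the smaller A, C and E proteins move between particles, where they switch lipoprotein lipase on or off or bind the receptors that clear remnants. In the rat, the liver is a main source of these proteins, and the intestine also makes Apob, Apoa1, Apoa4 and Mttp.

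The libraries held between 12348511 and 14316886 counts on genes, with overlapping depths in both groups, and every pair of livers differed beyond sampling noise (chi-square of 15.3 or more for each degree of freedom). The tissue label was checked against marker genes. All 7 hepatocyte markers were tested and 0 were called, with Alb at 10.6% to 13.5% of the counts. Of 5 enterocyte markers listed, 4 matched a gene name, and of these 1 (Lct) was at 0 and Fabp2 held most counts. Their sums were 1.96 to 2.31 CPM (counts scaled to library size) in t-PBS and 2.63 to 3.22 CPM in t-DHEA livers, without overlap. All 3 adipocyte markers were at 0 in every liver. Values per liver are given in the order of rats 1, 2 and 3 of a group. Called means a two-sided p below 0.05 before adjustment, by the quasi-likelihood test of edgeR, together with a fold change above 1.2.

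In Rnor_6.0, the build of the gene table, Apoa1 (8:50525091-50526875), Apoc3 (8:50529318-50531498), Apoa4 (8:50537009-50539376) and Apoa5 (8:50559126-50561736) lay side by side within 36646 bases of chromosome 8. Apoc2 (1:80589023-80594136) and Apoe (1:80612895-80617057) lay 18759 bases apart on chromosome 1. The other members stood alone, with Apoa2 at 13:89597138-89598802, Apob at 6:33176778-33224997, Apoh at 10:96639924-96653938 and Mttp at 2:243366181-243407608. RefSeq promoter windows of GRCr8, a later build, reaching from 250 bases before to 50 after the start, were at hand for 5 of the 10, namely Apoa4, Apoa5, Apoc2, Apoe and Apoh, and none was used here for Apoa1, Apoa2, Apob, Apoc3 and Mttp. The windows of Apoa4, at chr8:55435529-55435828, and of the upstream start of Apoa5, at chr8:55457621-55457920, both on the + strand, are printed because these neighbours had the most distant profiles of all member pairs. Capitals mark matches to the motifs searched.
Apoa4: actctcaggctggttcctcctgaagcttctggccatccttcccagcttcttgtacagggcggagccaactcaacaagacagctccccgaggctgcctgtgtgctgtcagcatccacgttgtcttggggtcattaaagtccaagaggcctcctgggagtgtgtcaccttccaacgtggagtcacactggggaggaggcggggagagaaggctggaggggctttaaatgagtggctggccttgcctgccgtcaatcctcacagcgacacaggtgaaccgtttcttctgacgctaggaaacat
Apoa5: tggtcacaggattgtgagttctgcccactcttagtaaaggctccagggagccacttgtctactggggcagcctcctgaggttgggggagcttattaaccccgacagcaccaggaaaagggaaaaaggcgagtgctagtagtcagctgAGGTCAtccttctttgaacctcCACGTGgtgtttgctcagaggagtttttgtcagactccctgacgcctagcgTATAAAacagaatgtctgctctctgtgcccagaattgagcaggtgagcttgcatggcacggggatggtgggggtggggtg
Motifs were searched on both strands as TATAAA, the Hnf4a sequence CAAAGTCCA, the nuclear receptor core element AGGTCA, the sterol element TCACNCCAC and the E-box CACGTG. The Apoa4 window held none of these letters. The Apoa5 window held AGGTCA at position -103, CACGTG at -81 and TATAAA at -30 from the start, with no overlap between them. Over all 33469 windows of the same length, TATAAA was in 14.2%, CAAAGTCCA in 0.391%, AGGTCA in 16.2%, TCACNCCAC in 1.12% and CACGTG in 6.42%. Of the 8 member windows, 3 held TATAAA, the others being that of Apoc2, at -40, and that of a second, downstream Apoa5 start, which overlaps the window printed. Such a match is a description of the letters and not a bound site.

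Lipoprotein transcripts were among the most abundant in these livers. Each member's mean lay at or above the 98.1st percentile of the genes tested, and together they took between 2.72% and 3.31% of all counts in a liver. The share was 3.01% ± 0.265 (SD, n = 3) in t-PBS and 2.92% ± 0.183 (SD, n = 3) in t-DHEA livers. Liver by liver it was 3.31%, 2.93% and 2.80% in the t-PBS group, and 2.95%, 2.72% and 3.08% in the t-DHEA group, so that the groups overlapped.

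Levels of different genes were compared per length, as FPKM (fragments scaled to gene length and library size), averaged over the 6 livers. Apoe, the ligand for remnant receptors, stood first with 8229 FPKM. Apoc3, an inhibitor of lipoprotein lipase, followed with 3486 and Apoh, a phospholipid-binding plasma protein, with 2882 FPKM, and these 3 kept their order in every liver. Apoa2 (1540 FPKM) and Apoa1 (1493 FPKM) could not be ordered, since Apoa2 was the higher in 3 of 6 livers. Apoc2, with 980 FPKM, was above Apoa4 (621 FPKM) in all 6 livers although their ranges overlapped, and Apoa4 was above Apoa5 (505 FPKM) in 5 of 6. Apob (365 FPKM), whose transcript is the longest of the set, and Mttp (114 FPKM) came last, in that order in each liver. On the CPM scale, which does not correct for length, Apob ranked second after Apoe.

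No member passed the test between the groups. Of the 10, 0 were called higher and 0 lower by edgeR's quasi-likelihood test, against a background of 4.95% of all genes tested, 1.97% higher and 2.98% lower. None had an unadjusted p below 0.05, the lowest being 0.208 for Apoa4, and the Benjamini-Hochberg adjusted p-values over all genes were 0.986 or more. Over the whole table, 0 genes, or 0%, passed that test at an adjusted p below 0.05, 634 had an unadjusted p below 0.05, and edgeR's likelihood-ratio test and DESeq2 gave 28 and 24 genes at an adjusted p below 0.05, with no member among them. The log2 fold change (t-DHEA minus t-PBS) was positive for 6 members and negative for 4. Its median was 0.0078 over the members and 0.0013 over all genes tested, and the median of its absolute size was 0.0443 for the members and 0.114 for all genes. All genes tested include many of far lower counts than the members, so these absolute sizes were not compared at matched levels. All 10 intervals included 0, and their outer ends were at -1.01 for Apoa4 and 0.57 for Apoa1.

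**Figure D1:**
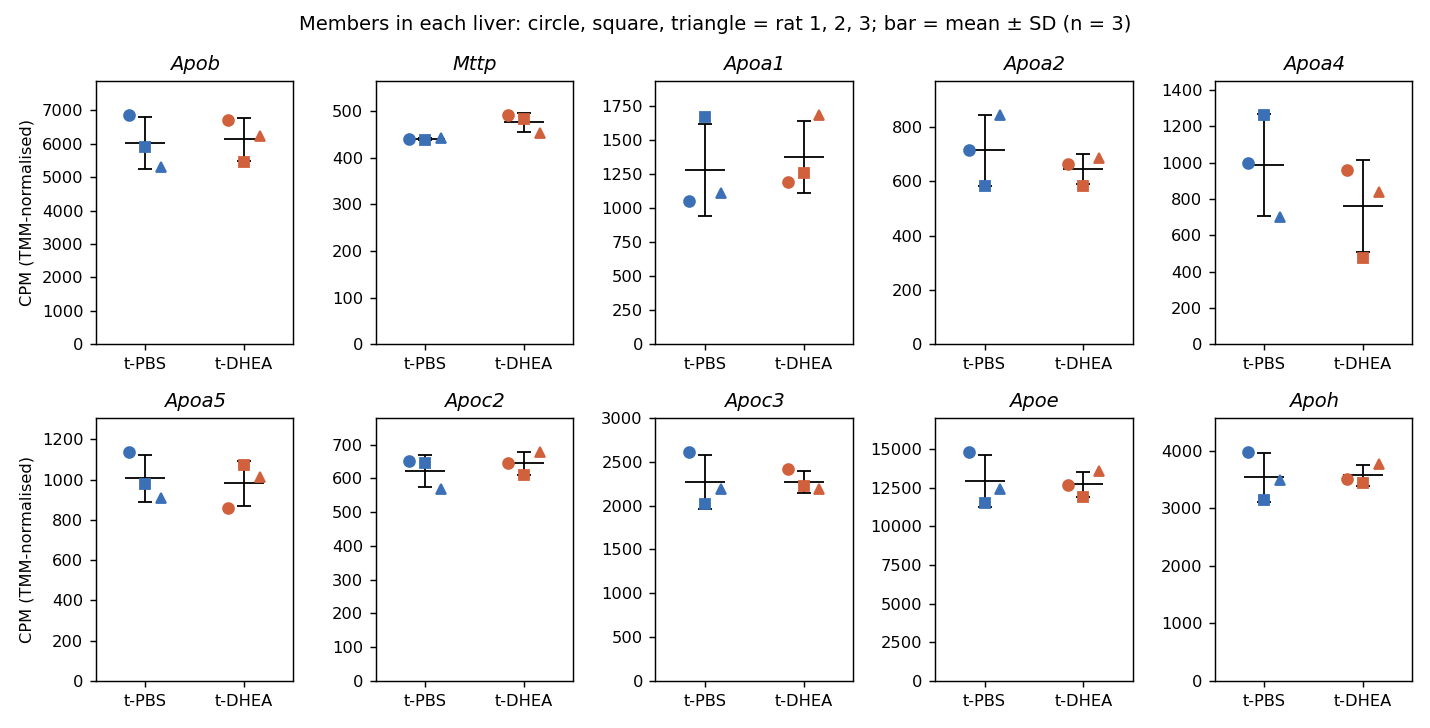
Normalised level of each member in every liver, as CPM after TMM normalisation on an axis from 0. Blue marks are t-PBS and red marks t-DHEA livers, with circle, square and triangle for rats 1, 2 and 3, and black bars give the mean ± SD (n = 3); the groups overlap for 9 of the 10 genes, the exception being Mttp.

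Apob encodes the structural protein of very-low-density and low-density lipoprotein. Its level was 6846, 5904 and 5308 CPM in the t-PBS group and 6715, 5454 and 6223 CPM in the t-DHEA group. The highest livers were rat 1 of either group, and the ranges overlapped almost completely. The log2 fold change was 0.03 ± 0.15 (SE; 95% interval -0.31 to 0.36), and its sign turned when the libraries were scaled by their totals alone.

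Mttp, the lipid-loading partner of Apob, was the single member whose groups did not overlap. Its level was 440, 438 and 442 CPM in the t-PBS group and 491, 482 and 454 CPM in the t-DHEA group. Every t-DHEA liver thus stood above every t-PBS liver, and the means were 440 ± 1.93 and 476 ± 19.5 CPM (SD, n = 3), a fold of 1.08 with a 95% interval of 0.936 to 1.25. The edgeR p was 0.254 and the exact permutation p was 0.1, the smallest that 3 livers against 3 allow. Among all genes tested, 10.1% had groups that did not overlap, so 1 of 10 members was near the background. With library totals in place of TMM factors the groups of Mttp overlapped. Of the enterocyte markers, Fabp2 alone was tested, on 25 to 41 counts in a liver. Its groups did not overlap, at 1.99 ± 0.219 and 2.72 ± 0.307 CPM (SD, n = 3) in t-PBS and t-DHEA livers. Its log2 fold change of 0.45 ± 0.23 (SE) was not called. Vil1, below the filter, held 1, 4 and 1 counts in t-PBS and 1, 2 and 0 in t-DHEA livers. Cdx1 held 0 to 2 counts in a liver and Lct 0. The part of intestinal cells in the Mttp values was not tested. The relative SD of the t-PBS livers, 0.438%, was below the counting error of a single liver, which was 1.25% to 1.31% for this gene, and 4.11% was the relative SD of the t-DHEA livers.

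Apoa1, the main protein of high-density lipoprotein and activator of the enzyme that esterifies its cholesterol, was measured at 1053, 1665 and 1108 CPM in the t-PBS group. In the t-DHEA group the values were 1194, 1253 and 1679 CPM. A single liver in each group, t-PBS rat 2 and t-DHEA rat 3, stood well above the rest, which lay between 1053 and 1253 CPM. The log2 fold change was 0.11 ± 0.20 (SE; 95% interval -0.35 to 0.57), and leaving out t-PBS rat 2 moved it to 0.35 while leaving out t-DHEA rat 3 moved it to -0.055.

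Apoa2, the second protein of high-density lipoprotein, was at 714, 584 and 842 CPM in the t-PBS group and at 665, 581 and 687 CPM in the t-DHEA group. The liver highest in Apoa1 among the t-PBS rats was the lowest in Apoa2. The log2 fold change was -0.15 ± 0.15 (SE; 95% interval -0.48 to 0.18), and it moved to -0.27 without t-PBS rat 2 and to -0.0098 without t-PBS rat 3, neither of which passed the test.

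Apoa4, a protein of chylomicrons and high-density lipoprotein that responds to lipid load and fasting, varied most. Its level was 997, 1260 and 698 CPM in the t-PBS group and 960, 475 and 840 CPM in the t-DHEA group, a 2.65-fold range. Rat 2 of the t-PBS group was the highest and rat 2 of the t-DHEA group the lowest, while the other 4 livers were mixed between the groups. The means were 985 ± 281 and 758 ± 253 CPM (SD, n = 3), a fold of 0.770 with a 95% interval of 0.497 to 1.19, and the p was 0.208 in edgeR and 0.4 in an exact permutation test. Each refit kept the negative sign, and leaving out 1 liver gave log2 fold changes between -0.58, when t-DHEA rat 1 was left out, and -0.13, when t-DHEA rat 2 was. A decrease of Apoa4 to 0.497 times its t-PBS level was inside this interval.

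Apoa5, which enhances lipolysis of triglyceride-rich particles, was at 1136, 976 and 908 CPM in the t-PBS group. In the t-DHEA group it was at 856, 1072 and 1014 CPM. The order of rats 1 and 2 was opposite between the groups, and the log2 fold change was -0.04 ± 0.13 (SE; 95% interval -0.34 to 0.26). Leaving out rat 1 of either group turned its sign, to 0.059 and 0.052.

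Apoc2, the activator of lipoprotein lipase, was at 652, 645 and 569 CPM in the t-PBS group and at 645, 611 and 678 CPM in the t-DHEA group. Its log2 fold change was 0.05 ± 0.10 (SE; 95% interval -0.19 to 0.29). Apoc3, which inhibits that enzyme and slows remnant uptake, was at 2611, 2016 and 2189 CPM in the t-PBS group and 2418, 2219 and 2184 CPM in the t-DHEA group. The group means of Apoc3 were nearly equal, at 2272 ± 306 and 2274 ± 126 CPM (SD, n = 3), and the 95% interval of its log2 fold change was -0.29 to 0.30.

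Apoe was at 14797, 11511 and 12440 CPM in the t-PBS group and at 12668, 11909 and 13556 CPM in the t-DHEA group. Apoh was at 3982, 3146 and 3494 CPM in the t-PBS group and 3507, 3441 and 3781 CPM in the t-DHEA group. For both genes t-PBS rat 1 was the highest and t-PBS rat 2 the lowest liver, and all t-DHEA livers fell between them. The log2 fold changes were -0.02 ± 0.15 for Apoe (SE; 95% interval -0.36 to 0.31) and 0.01 ± 0.13 for Apoh (SE; 95% interval -0.28 to 0.31). Apoe is also made by macrophages. The 9 Kupffer cell and macrophage markers summed to 490 to 632 CPM in t-PBS and 556 to 773 CPM in t-DHEA livers. Of these markers 0 were called, 8 had a positive and 1 a negative log2 fold change, and the median was 0.19. Their part in the Apoe values was not tested.

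**Figure D2:**
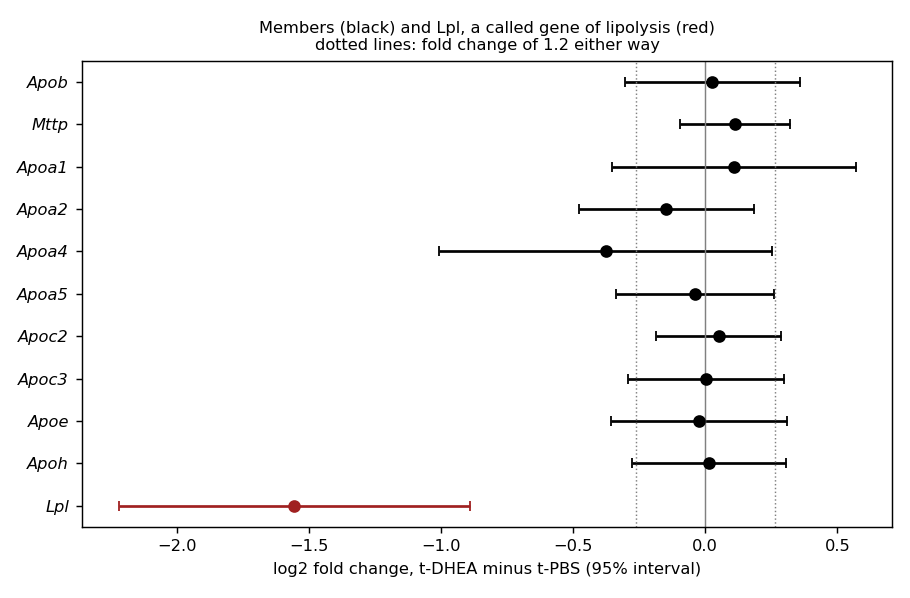
Log2 fold change of each member (black) with its 95% interval, and of Lpl (red), from the same edgeR fit; dotted lines mark a fold change of 1.2 in either direction. Every black interval includes 0, that of Apoa4 being the widest, from -1.01 to 0.25, while the red interval does not.

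Counting error was 0.218% to 1.31% for a member in a liver, whereas the relative SD within a group reached 28.5% in t-PBS and 33.4% in t-DHEA livers. In 8 of the 10 members the relative SD was smaller in t-DHEA than in t-PBS livers. The same count over all genes tested was not made. The ratio of the highest to the lowest liver had a median of 1.29 over the members, close to the 1.28 over the 1149 tested genes at 100 CPM or more. Of the t-PBS livers, rat 1 held the highest value of 5 members and rat 2 the lowest value of 4, and t-DHEA rat 3 held the highest of 2 and the lowest of 0.

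**Figure D3:**
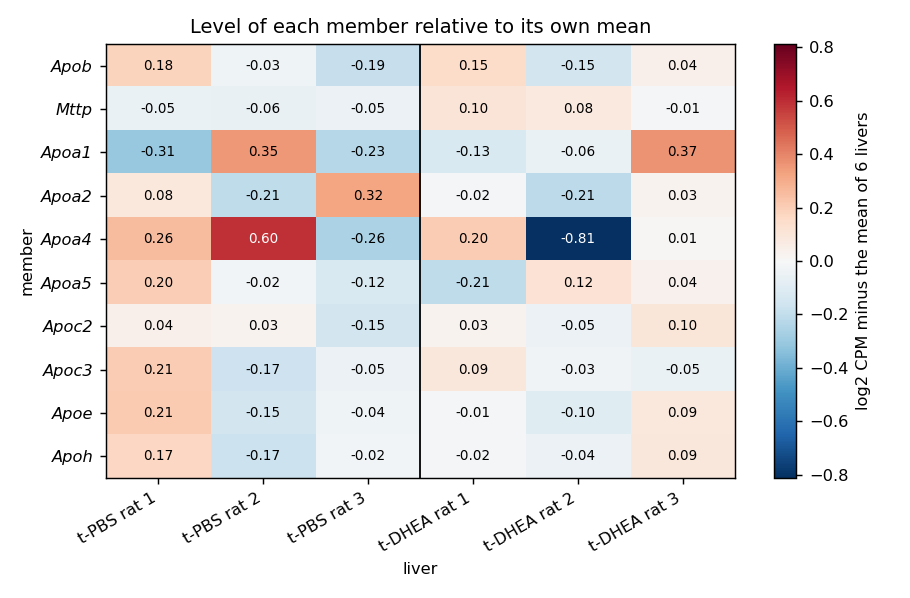
Log2 CPM of each member in each liver minus that gene's mean over the 6 livers, with red for above and blue for below the mean. The deepest colours are Apoa4 in t-PBS rat 2 (0.60) and in t-DHEA rat 2 (-0.81), and the rows of Apoe and Apoh are nearly alike.

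Profiles over the 6 livers were set side by side by the root mean square difference of centred log2 CPM, in which 0 means identical profiles. Apoe and Apoh, on different chromosomes, were the closest pair with 0.0321, followed by Apoc3 with Apoh (0.0770) and Apoc3 with Apoe (0.0775). The most distant pair was Apoa4 with Apoa5 (0.489), 19750 bases apart, and the neighbours Apoa1 and Apoc3 differed by 0.363. The next most distant pairs also held Apoa4, with Apoa2 (0.486) and with Mttp (0.479). The measure is not scaled to a gene's own spread, which was largest for Apoa4. Among 7149 tested genes with a mean of at least 10 CPM, the profile of Apoa4 was nearest to Mbnl2 (0.187), Ldhd (0.194) and Cd74 (0.206). That of Mttp was nearest to Ngly1 (0.0230), Aqp9 (0.0268) and Ermp1 (0.0278), and that of Apoa2 to Cyp27a1 (0.0197), Mrpl42 (0.0256) and Klhl21 (0.0353). These values rest on 6 livers that share their scaling, and are a description.

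Ratios between functionally paired members, taken per length within a liver and so free of the scaling between libraries, overlapped between the groups in all 5 cases. Apoa4 to Apoa1 was 0.598, 0.478 and 0.398 in the t-PBS group and 0.508, 0.239 and 0.316 in the t-DHEA group. The log2 ratio differed by -0.52 (t-DHEA minus t-PBS), with an exact permutation p of 0.3 and 0.8 after adjustment over the 5 ratios. Without t-DHEA rat 1 this difference was -0.82, with an exact permutation p of 0.1, the smallest possible. That liver had the highest ratio of its group, 0.508, so leaving it out enlarged the difference. Leaving out t-DHEA rat 2, the lowest at 0.239, makes the difference smaller instead. The size of the difference thus depended on single livers. Apoc2 to Apoc3, activator to inhibitor of lipoprotein lipase, ranged from 0.252 to 0.323 in t-PBS and from 0.269 to 0.313 in t-DHEA livers. Mttp to Apob ranged from 0.268 to 0.346 in t-PBS and from 0.303 to 0.368 in t-DHEA livers, and its exact p was 0.7, as for Apoc2 to Apoc3 and for Apoe to Apob. The exact p of Apoc3 to Apoa1 was 0.8, and all 5 adjusted values were 0.8.

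Within 100 kb of a member lay 37 other genes, of which 25 were tested. Of these 0 were called higher, against 1.97% of all genes tested, and 1 lower, against 2.98%. That gene was Bcam, a laminin-binding adhesion molecule near Apoe and Apoc2, with a log2 fold change of -0.59 (adjusted p = 0.900) and groups that overlapped. Apoc1 and Apoc4, apolipoproteins that sit between Apoe and Apoc2, had log2 fold changes of 0.02 and 0.001. Groups did not overlap for 2 of the 25, against 10.1% of all genes tested. Prkca, a protein kinase gene near Apoh, was at 15.6 ± 0.935 and 18.2 ± 1.87 CPM (SD, n = 3) in t-PBS and t-DHEA livers, with a log2 fold change of 0.22 ± 0.12 (SE; adjusted p = 0.986). LOC100360154, beyond Apoa5, held 118 counts in all, at a log2 fold change of 1.32 ± 0.70 (SE; adjusted p = 0.986). The listed genes AABR07070085.1 and AABR07073400.1 overlap Apoa1 and Apoa4, and held 10 and 18 counts over the 6 livers. Whether the counting used strand is not given in the sources used here.

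Of 52 further genes of the lipoprotein pathway described here, listed by role, 50 were tested. By edgeR 0 were called higher and 1, Lpl, was called lower in t-DHEA livers, against 1.97% and 2.98% of all genes tested. At an adjusted p below 0.05 the count was 0, and an unadjusted p below 0.05 was held by Lpl alone among the 50. Every pathway gene named below and not called had an adjusted p of 0.974 or more. Groups did not overlap for 3 of the 50, namely Lpl, Sar1b and Nr1h4, against 10.1% of all genes tested.

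Of 5 receptor genes, 0 were called, and their median log2 fold change was 0.05. Lrp1, which takes up remnants bearing Apoe, was at 1132, 941 and 1051 CPM in the t-PBS group and at 1337, 1500 and 907 CPM in the t-DHEA group. The lowest and the highest livers were both in the t-DHEA group, and the log2 fold change was 0.26 ± 0.18 (SE). Sdc1, a heparan sulfate proteoglycan that also binds remnants, had a log2 fold change of 0.15 ± 0.17 (SE), and Scarb1, the receptor for high-density lipoprotein, one of 0.05 ± 0.09 (SE).

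Lpl, lipoprotein lipase, the enzyme that Apoc2 and Apoc3 act on and that is mostly made outside hepatocytes, was called lower. Its level was 17.5, 26.7 and 13.96 CPM in the t-PBS group and 9.33, 4.94 and 5.56 CPM in the t-DHEA group. The groups did not overlap, and the log2 fold change was -1.56 ± 0.29 (SE), with an edgeR p of 0.000529 and an adjusted p of 0.687. The call was kept in all 16 refits, whose adjusted p ran from 0.000208 to 0.979, and it passed at an adjusted p below 0.05 in DESeq2 (adjusted p = 0.000208) and in edgeR's likelihood-ratio test (adjusted p = 0.000888) alone. The 3 adipocyte markers were at 0 in every liver and so could show no change. Of the mesothelial markers, 3 of 3 tested were called lower, and the list summed to 20.8 to 23.5 CPM in t-PBS and 1.57 to 9.81 CPM in t-DHEA livers. Cholangiocyte markers summed to 18.2 to 22.8 and 9.05 to 15.8 CPM, with Krt19 and Krt7 called lower of 4 tested, and of the 6 stellate cell and fibroblast markers Col1a1 and Col3a1 were called lower, with sums of 524 to 694 and 426 to 514 CPM. The part of these cells in the Lpl difference was not tested. Other remodelling genes were not called, with Angptl4, an inhibitor of lipoprotein lipase, at a log2 fold change of -0.26 ± 0.18 (SE) and the phospholipid transfer protein gene Pltp at 0.18 ± 0.16 (SE), and the median of the 8 tested was -0.013.

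**Figure D4:**
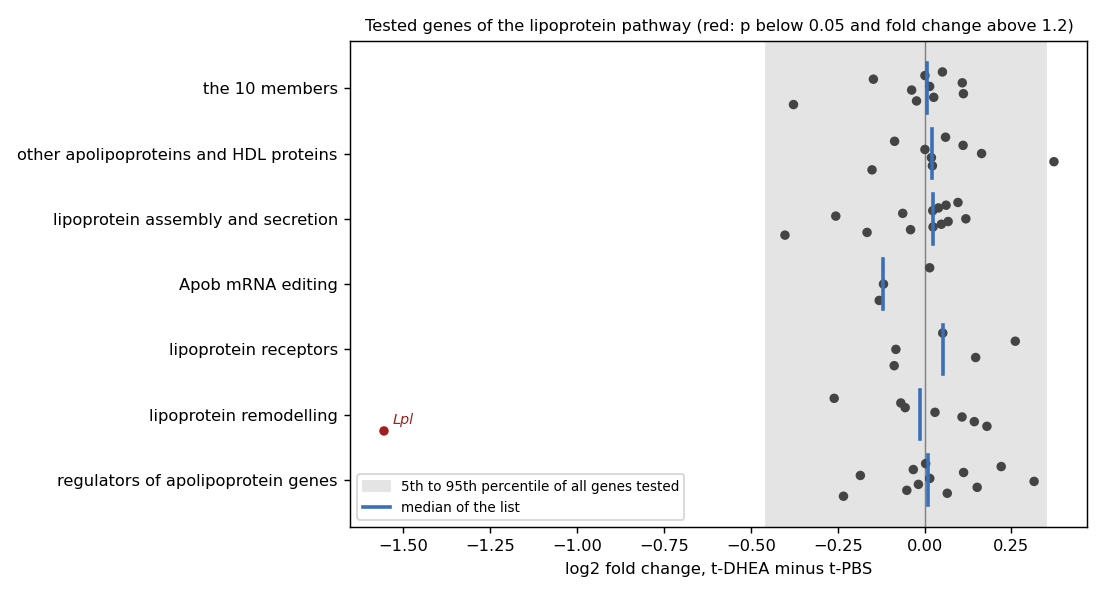
Log2 fold change of every tested gene in the 6 pathway lists and of the 10 members, 1 point per gene, with the list median as a blue line and the range from the 5th to the 95th percentile of all genes tested shaded, from -0.46 to 0.35. The red point is the called gene, Lpl, and no member or assembly gene was called.

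Partners of Apob in assembly and export were not called, with 0 of 13 in either direction and a median log2 fold change of 0.02. The lowest p-values were those of Sec23b (-0.26 ± 0.17, log2 fold change and SE), a coat protein of export vesicles, Ces1d (-0.40 ± 0.31), a lipid hydrolase of the endoplasmic reticulum, and the cargo receptor Surf4 (-0.17 ± 0.15). Sar1b, the small GTPase needed for export of large particles, had groups that did not overlap, with means of 98.7 ± 0.505 and 103 ± 3.61 CPM (SD, n = 3) and an adjusted p of 0.990. The editing machinery that shortens Apob protein, expressed in rat liver, was likewise not called, with log2 fold changes of 0.01 for the deaminase gene Apobec1, -0.13 for its cofactor A1cf and -0.12 for Rbm47. These 3 genes were measured as transcripts, and editing of Apob itself cannot be read from gene counts.

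Among the other apolipoproteins and high-density lipoprotein proteins, 0 of 9 tested were called and the median log2 fold change was 0.02. Apof, which modulates cholesteryl ester transfer, had the lowest p (log2 fold change 0.37 ± 0.21, SE), ahead of the paraoxonase gene Pon3 (0.16 ± 0.12) and Saa4 (-0.15 ± 0.12). Of 12 regulators of apolipoprotein genes 0 were called, and their median was 0.009. Hnf4a, a hepatocyte factor that drives many of these genes, had a log2 fold change of 0.11 ± 0.10 (SE). Nr1h4, the bile acid receptor, was lower in every t-DHEA liver than in any t-PBS liver, at 119 ± 17.8 and 101 ± 4.08 CPM (SD, n = 3) in t-PBS and t-DHEA, with a log2 fold change of -0.23 ± 0.12 (SE). The t-PBS values were 139, 108 and 109 CPM, and without rat 1, the highest, the log2 fold change was -0.10. It was called when libraries were scaled by totals, at -0.27. Ppara, the fatty acid sensor, was at -0.18 ± 0.11 (SE). Nr1d1, a clock repressor that also acts on Apoc3, was at 0.32 ± 0.20 (SE).

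The remaining marker lists are given by their counts and sums, beside a background of 4.95% of genes called. Of 10 genes that report the phase of the circadian clock, 4 (Dbp, Tef, Per2 and Per3) were called higher and 1 (Arntl) lower in t-DHEA livers, with overlapping sums of 237 to 285 CPM in t-PBS and 245 to 396 CPM in t-DHEA livers. Red blood cell markers summed to 180 to 280 CPM in t-PBS and 295 to 575 CPM in t-DHEA livers, with Hba1 and Hbb called higher of 4 tested, and among 4 sinusoidal endothelial markers Kdr was called higher, with overlapping sums of 175 to 280 CPM in t-PBS and 266 to 276 CPM in t-DHEA livers. Markers of hepatocytes, the cells that express the members, summed to 174383 to 189963 CPM in t-PBS and 187241 to 202383 CPM in t-DHEA livers, which overlapped. The part of these lists in the levels of the members was not tested.

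**Figure D5:**
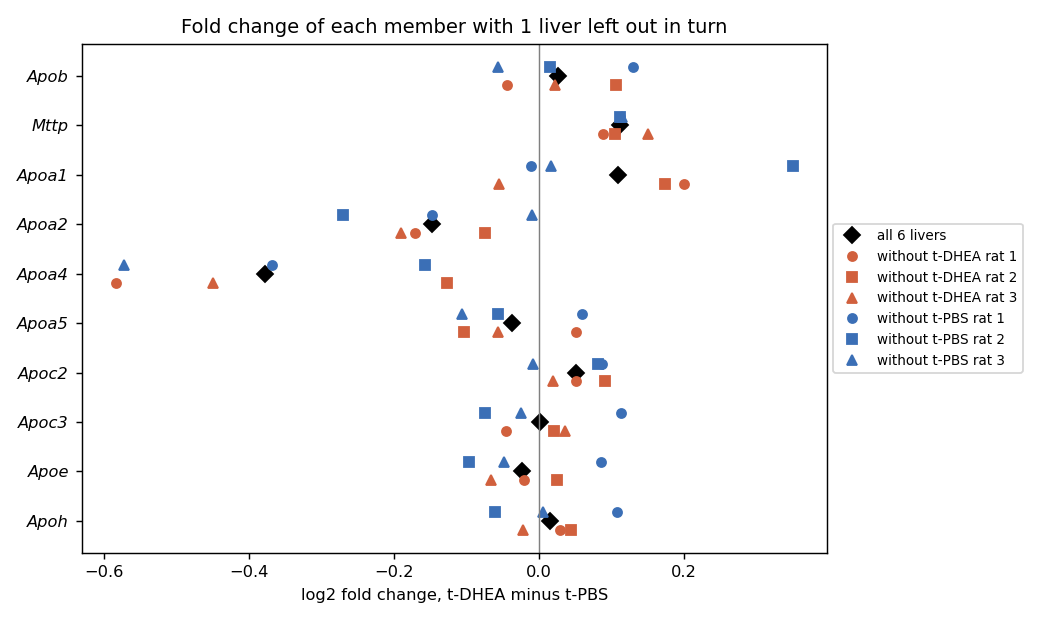
Log2 fold change of each member with all 6 livers (black diamond) and with each liver left out in turn (blue for a t-PBS, red for a t-DHEA rat; circle, square and triangle for rats 1, 2 and 3). Values of Apoa4, from -0.58 to -0.13, Apoa2 and Mttp stay on the same side of 0, and those of the other 7 members lie on both sides.

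Leaving out each liver in turn kept the sign of Apoa2, Apoa4 and Mttp and turned it at least once for the other 7 members. In none of the 16 refits was a member called, and the lowest member p among them was 0.0717, for Apoa4 without t-PBS rat 3. With all 6 livers and in each of the 16 refits, a fold change beyond 1.5 lay outside the 95% interval for Mttp, Apoc2, Apoc3, Apoa5, Apoh, Apob and Apoe. The interval of Apoa1 lay within that bound, 0.58 on the log2 scale, with all 6 livers and passed it in 6 of the 16 refits, reaching 0.74 without t-PBS rat 2. That of Apoa2 passed it in 1, reaching -0.59 without t-DHEA rat 3. For Apoa4 it was passed in all 16, and with all 6 livers a decrease to as little as 0.497 times the t-PBS level lay inside the interval.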

How the data were processed

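Liver RNA of 3 t-PBS and 3 t-DHEA rats was sequenced as paired-end libraries. The submitters' processing notes name HISAT2 2.0.4, StringTie 1.3.0 and the build Rnor_6.0, and the authors deposited the raw fragment count of each gene without normalization. The FPKM values the authors deposited equalled count per length and library total within a relative difference of 9.73e-06 over 7302 genes and were used for levels between genes only. The annotation release and strandedness are not given in the sources used here.

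Counts were fitted with edgeR 4.0.16 in R 4.3.3 (TMM, default filter, quasi-likelihood test, no block), with adjustment by Benjamini-Hochberg over 12210 genes. The study's text describes edgeR on FPKM, which was not done here. Calls followed the study's criteria, with p below 0.05 before adjustment and fold change above 1.2. Standard errors came from the test statistic. Ratios were tested by exact permutation, whose smallest p is 0.1. Alternatives used DESeq2 1.42.0 and limma 3.58.1. Depth was 12348511 to 14316886 counts, and a count of 0 allowed up to 3 counts, or 0.210 to 0.243 CPM, for counting error only. The quasi-likelihood, likelihood-ratio, DESeq2, limma (0.1 added) and block fits and the alternative scalings were run on simulated counts. The alternative filters, limma with 1 added and the fits with 1 liver left out were not.

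The members and gene lists were chosen with earlier results of these data known. Named genes were the members, up to 3 genes of lowest p in a pathway or marker list, the nearest profiles of the 3 members with the lowest p, and genes within 100 kb; Hnf4a, Sar1b, Dbp and Tef were named after their values were seen. Of the list entries, 108 of 110 matched a gene name. Some pathway genes are not reported here and are in no list count or median. The rats were caged in pairs and donor pellets were pooled, so p-values measure the spread between these livers and not that between cages or donor pools. Rat numbers 1 to 3 come from the labels.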

Additional observations from a re-analysis of the deposited data

How the results depend on the processing

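No member was called in any of 18 settings, and 136 of 160 refitted member values kept their sign. With library totals in place of TMM the median of all genes shifted from 0.0013 to -0.0365 and calls went from 240 higher and 364 lower (39.7% higher) to 157 and 471 (25% higher); no groups of a member were then separated. Signs turned for Apob (-0.0116), Apoc3 (-0.0350), Apoh (-0.0213) and Apobec1 (-0.0226) under that scaling, for Apob (-0.00893 and -0.00891), Apoc3 (-0.0298 and -0.0298), Apoh (-0.0179 and -0.0179) and Apobec1 (-0.0349 and -0.0295) with limma on log2 FPKM with 0.1 or 1 added, and for Apoc3 (-0.00218) with at least 10 counts in every liver. Limma with 1 added gave 147 genes called higher, and 0 with an adjusted p below 0.05. DESeq2 gave 240 genes called lower and 24 with an adjusted p below 0.05, against 28 for the likelihood-ratio test and 0 in the quasi-likelihood test. A fold change above 1.5 left 275 genes, 101 higher and 174 lower, and above 2 left 100, 32 higher and 68 lower.

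Leaving out 1 liver gave 0 to 1 genes with an adjusted p below 0.05, the 1 without t-PBS rat 3, t-DHEA rat 2 or t-DHEA rat 3. Log2 fold changes then ran from -0.0553 to 0.350 for Apoa1, -0.106 to 0.0590 for Apoa5, -0.0559 to 0.129 for Apob, -0.00852 to 0.0916 for Apoc2, -0.0750 to 0.113 for Apoc3, -0.0966 to 0.0861 for Apoe, -0.0608 to 0.108 for Apoh, -0.334 to 0.0471 for A1cf, -0.674 to 0.0265 for Ces1d, -0.00553 to 0.28 for Sdc1 and -0.0765 to 0.157 for Apobec1. Some genes were called with 1 liver out and were nearer 0 without another, namely Apof (0.57 without t-DHEA rat 1, 0.11 without t-DHEA rat 2), Surf4 (-0.33 without t-DHEA rat 2, -0.049 without t-DHEA rat 1), Angptl4 (-0.45 and -0.069, likewise), Lrp1 (0.45 without t-DHEA rat 3, 0.11 without t-DHEA rat 2), Sec23b (-0.42 without t-PBS rat 3, -0.057 without t-PBS rat 2) and Nr1d1 (0.60 without t-PBS rat 3, 0.17 without t-PBS rat 1). The cause of these changes was not tested.

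Rats with the same number in both groups did not deviate together (correlations of -0.0626 to -0.0390 across genes). Rats with other numbers had correlations of -0.0759 to 0.117, a range that holds the former. With deviations from the mean of only 3 livers in a group, the comparison cannot exclude that the numbers pair the rats. With rat number as a replicate block 539 genes were called, 212 higher and 327 lower, and 0 members; Ces1d (-0.36) and Nr1d1 (0.35) were called under it. The depth of these livers bounds counting error, not the spread between 3 rats.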
